A study of Homo sapiens with 3 samples.

Results

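The cytosolic ribosomal proteins are the protein parts of the ribosome that translates nuclear mRNAs. The genes were chosen by symbol alone, as RPL, RPLP, RPS and RPSA genes without their read-through partners, the S6 kinase genes or the mitochondrial ribosomal proteins. The rule matched 85 of the 18345 genes in the deposited tables, 53 of the large subunit and 32 of the small subunit. Of these, 83 reached 1 FPKM in at least 1 library and are called measured, 51 of the large and 32 of the small subunit. The other 2 were RPL10L, listed at 0 in every library, and RPL3L, at 0.20, 0.38 and 0.46 FPKM in CD105high, CD105low and CD105neg. In the mouse and in humans these are copies of RPL10 and RPL3 used mainly in testis and in striated muscle.

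The study sequenced the RNA of cells derived from H1, an established line of human embryonic stem cells. The cells were called HEPs and labelled as day 4 of blood differentiation. All were CD31+CD34+, and were separated by surface CD105, or endoglin, into CD105high, CD105low and CD105neg populations. All 3 had the same culture, with activin A (40 ng/ml) and BMP4 (50 ng/ml) in a first stage of 2 days and VEGF (40 ng/ml) and bFGF (50 ng/ml) in a second stage of 3 days. Each population had 1 library from 1 line, so there is no spread between replicates, no p-value can be given, and every comparison is one of libraries. The values were treated as FPKM, which scales fragments by transcript length and by library. They summed to 265618 in CD105high, 284824 in CD105low and 289229 in CD105neg. Sources used here do not give the number of reads. Of 10 endothelial markers, 8 were higher by 1.5-fold or more in CD105high than in CD105neg, against 5.65% of all genes that reached 1 FPKM in any library. The 8 include the gate genes PECAM1 and CD34 and ENG, the gene of the sorted protein, so they are no independent check of the sort. The list summed to 1645, 1623 and 1210.1 FPKM in CD105high, CD105low and CD105neg. CLDN5 and EGFL7 were not among the 8, and EGFL7 alone held 528, 630 and 558 FPKM of these sums. Although the values of the CD105neg library stand under a heading that reads as CD105 positive, ENG, the gene of CD105, had 13.8 FPKM in CD105high, 8.56 FPKM in CD105low and 2.12 FPKM in CD105neg, the order of the labels.

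A ribosome holds a small subunit, which reads the mRNA, and a large subunit, which joins amino acids, and nearly every ribosomal protein is present in a single copy per ribosome. The genes are scattered over the genome, here over 21 chromosomes, and their mRNAs are among the most abundant of growing cells. Most of these mRNAs begin with a C followed by a run of C and T (U in the RNA), the terminal oligopyrimidine or TOP motif, through which mTOR signalling sets their translation. Blood formation is sensitive to them, since loss of 1 copy of several of these genes causes Diamond-Blackfan anaemia.

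The starts of 12 genes are shown because this motif is the feature that the family is known to share. The 12 include some of the strongest changes, some of the weakest changes and 3 pairs of related genes. Each line gives 30 bases before and 20 bases from the RefSeq transcript start on, on GRCh38.p14. Capitals mark a start with C followed by at least 4 bases that are each C or T, for the whole length of that run.
RPS6 (chr9:19380217-19380266, minus strand): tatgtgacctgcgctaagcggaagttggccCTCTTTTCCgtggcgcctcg
RPS23 (chr5:82278335-82278384, minus strand): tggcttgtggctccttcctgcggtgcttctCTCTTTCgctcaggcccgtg
RPL12 (chr9:127451387-127451436, minus strand): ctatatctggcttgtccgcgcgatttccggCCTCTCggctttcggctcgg
RPL36A (chrX:101390981-101391030, plus strand): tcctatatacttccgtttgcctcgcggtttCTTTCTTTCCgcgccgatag
RPS24 (chr10:78033833-78033882, plus strand): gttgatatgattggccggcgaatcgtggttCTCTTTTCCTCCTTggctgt
RPS27 (chr1:153990732-153990781, plus strand): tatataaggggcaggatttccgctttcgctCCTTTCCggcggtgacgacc
RPS27L (chr15:63157458-63157507, minus strand): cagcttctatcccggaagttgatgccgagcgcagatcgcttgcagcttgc
RPL22 (chr1:6199576-6199625, minus strand): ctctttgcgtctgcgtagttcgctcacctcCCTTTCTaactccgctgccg
RPL22L1 (chr3:170870176-170870225, minus strand): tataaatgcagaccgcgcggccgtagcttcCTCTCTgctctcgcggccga
RPL36AL (chr14:49620607-49620656, minus strand): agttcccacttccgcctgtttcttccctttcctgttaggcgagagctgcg
RPS3A (chr4:151099598-151099647, plus strand): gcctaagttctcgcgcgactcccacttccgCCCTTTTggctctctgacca
RPS15 (chr19:1438366-1438415, plus strand): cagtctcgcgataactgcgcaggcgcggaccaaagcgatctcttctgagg

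RPS27, RPL22 and RPL22L1 carry the run, and RPS27L and RPL36AL do not, although the start listed for RPL36AL lies inside an unbroken stretch of 15 bases of C and T. The strongest change of the small subunit, RPS6, has a run of 9 bases, and RPS3A, one of the weakest, has a run of 7. The RefSeq table held 84 windows for 68 of the 85 genes, and 56 measured genes had exactly 1 window. Of these 56, 41 (73.2%) had such a start on the gene's own strand, against 5.09% of 6189 other tested genes with 1 window and 4.07% of all 35116 windows in the table. The share was 75.8% of 33 large subunit genes and 69.6% of 23 small subunit genes. Among mitochondrial ribosomal proteins it was 7.27% of 55. The listed start need not be the start used in these cells, and a gene without the run in this window may still have it at another start.

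The ribosomal protein genes took a large part of the summed values of each library. These values are treated as scaled by transcript length, so the shares are not shares of reads. Their summed values came to 11.5% of all FPKM in CD105high, 12.4% in CD105low and 15.1% in CD105neg. These shares do not depend on whether the values are FPKM or TPM. The summed value of the members in CD105high was 0.703 times that in CD105neg, while the sum of all other genes was 0.957 times that in CD105neg. The large subunit held 6.34%, 6.89% and 8.28% of the total in CD105high, CD105low and CD105neg, and the small subunit 5.19%, 5.50% and 6.77%. The ratio of the large to the small subunit sum was 1.220 in CD105high, 1.254 in CD105low and 1.223 in CD105neg, so both subunits held a lower share in CD105high and CD105low than in CD105neg, at a nearly even balance.

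Levels differed far more between genes than between libraries. Among the highest small subunit genes were RPS27 and RPS18. RPS27, a zinc finger protein of the small subunit, had 1239 FPKM in CD105high, 1376 FPKM in CD105low and 1803 FPKM in CD105neg. RPS18, of the head, had 941, 1139 and 1415 FPKM in the same order of libraries. The 3 highest large subunit genes were RPL35, RPL39 and RPL13A. RPL35, at the mouth of the tunnel through which the new protein leaves, had 858 FPKM in CD105high, 1019 FPKM in CD105low and 1209 FPKM in CD105neg. RPL39, a short protein that lines the tunnel, had 826, 985 and 1132 FPKM in that order, and RPL13A, which also acts outside the ribosome in silencing inflammatory mRNAs, had 734, 939 and 1127 FPKM. All 5 genes were lowest in CD105high and highest in CD105neg. At the other end, RPL28 had 7.89, 9.13 and 9.59 FPKM in CD105high, CD105low and CD105neg. Its protein is a regular part of the large subunit, and 1.23% of its sampled sequence is shared with other genes. The median measured gene stood at 316 FPKM in CD105high, 369 FPKM in CD105low and 444 FPKM in CD105neg, and 73, 73 and 75 of the 83 genes reached 100 FPKM. The order of the genes by level was nearly the same in each library, with Spearman coefficients over the 83 genes of 0.987 for CD105high with CD105neg, 0.994 for CD105high with CD105low and 0.987 for CD105low with CD105neg. These are descriptions across genes of single libraries.

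**Figure D1:**
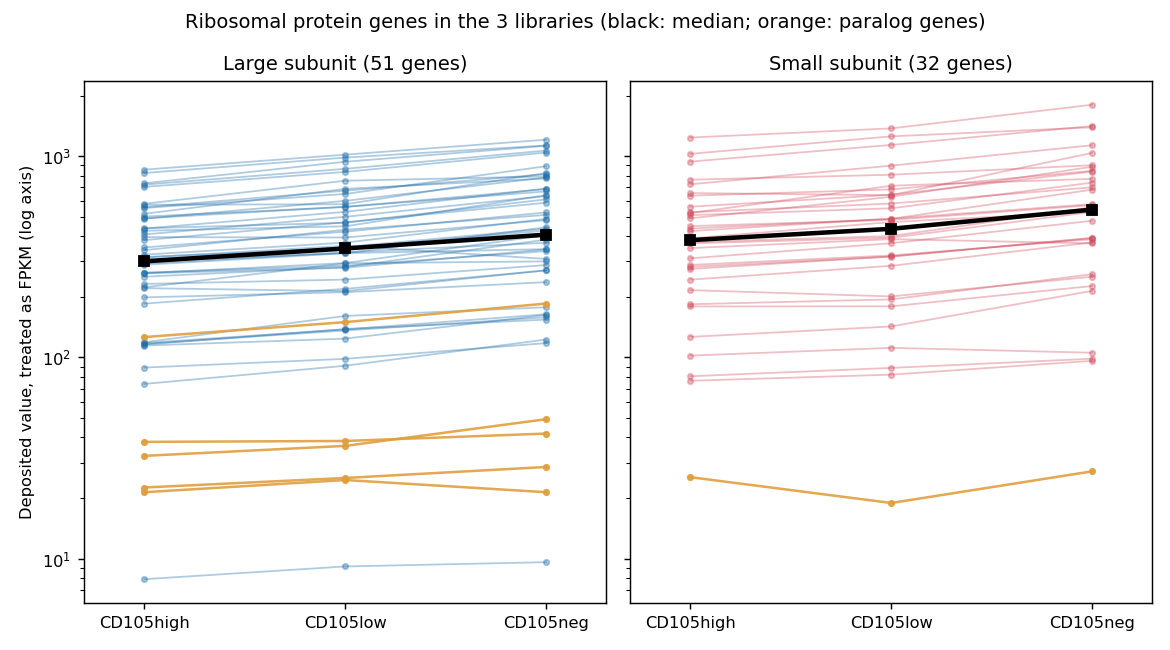
Deposited values, treated as FPKM, on a log axis for the 51 large subunit and 32 small subunit genes, with a line per gene across CD105high, CD105low and CD105neg, paralog genes in orange and the median in black. The median lies at 300.2, 348 and 408 FPKM for the large subunit and at 383, 436 and 543 FPKM for the small subunit, and lie lower in CD105high than in CD105neg in both panels.

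Nearly all ribosomal protein genes were lower in CD105high than in CD105neg, by a modest amount. On the log2 scale of the value plus 1, which understates the change of low genes, 82 of 83 were lower, against 61% of all 11343 tested genes, those that reached 1 FPKM in any library. The median log2 fold change was -0.49, with quartiles of -0.58 and -0.36, against -0.09 over all tested genes, with quartiles of -0.30 and 0.13. At least 1.5-fold lower were 21 of 83 (25.3%), against 6.88% of all tested genes, and none was 1.5-fold higher, against 5.65%. This count rests on the scale of the libraries. With each library rescaled to the same sum, which moves the median over the genes tested up by 0.10, 3 of 84 members (3.57%) were 1.5-fold lower. The share was 7.25% of all genes that reached 1 on the rescaled values. This set is not the 11343 genes, since the minimum of 1 then lets in genes of lower level. The fall in the count thus mixes the scale with the change of genes. After centring on the median gene, 5 of 83 members (6.02%) were 1.5-fold lower, against 4.50% of all tested genes. The members' median lay -0.40 from that of all tested genes, a distance that a common factor per library can hardly move by its construction, so it is no check on the count.

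CD105low also lay below CD105neg. The median was -0.30, against 0.02 over all tested genes, and 79 of 83 genes were lower, against 47.3%. Only RPS29 was at least 1.5-fold lower, 1 of 83 (1.20%), against 2.18% of all tested genes, and none was 1.5-fold higher, against 4.13%. Between CD105high and CD105low no member was 1.5-fold lower, against 2.19%, or higher, against 1.18%, and the median was -0.19, against -0.10 over all tested genes. By any amount, 78 of 83 were lower, against 71.5%, and 5 were higher. That number became 17 of 83 after centring and 17 of 84 after rescaling. Relative to all tested genes the members' median therefore lay -0.40 away in CD105high and -0.32 away in CD105low, both set against CD105neg, and -0.09 away in CD105high when set against CD105low. The comparisons with CD105neg share that single library. In 74 of 83 genes the level was lowest in CD105high, intermediate in CD105low and highest in CD105neg, against 36.4% of all tested genes, and no member had the opposite order, so that CD105low lay in between for these 74, against 54% of all tested genes. With each library rescaled to the same sum, CD105low lay in between for 63 of 84 members. The share of all genes on that scale is not given here, so whether the order still stands out there cannot be said.

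**Figure D2:**
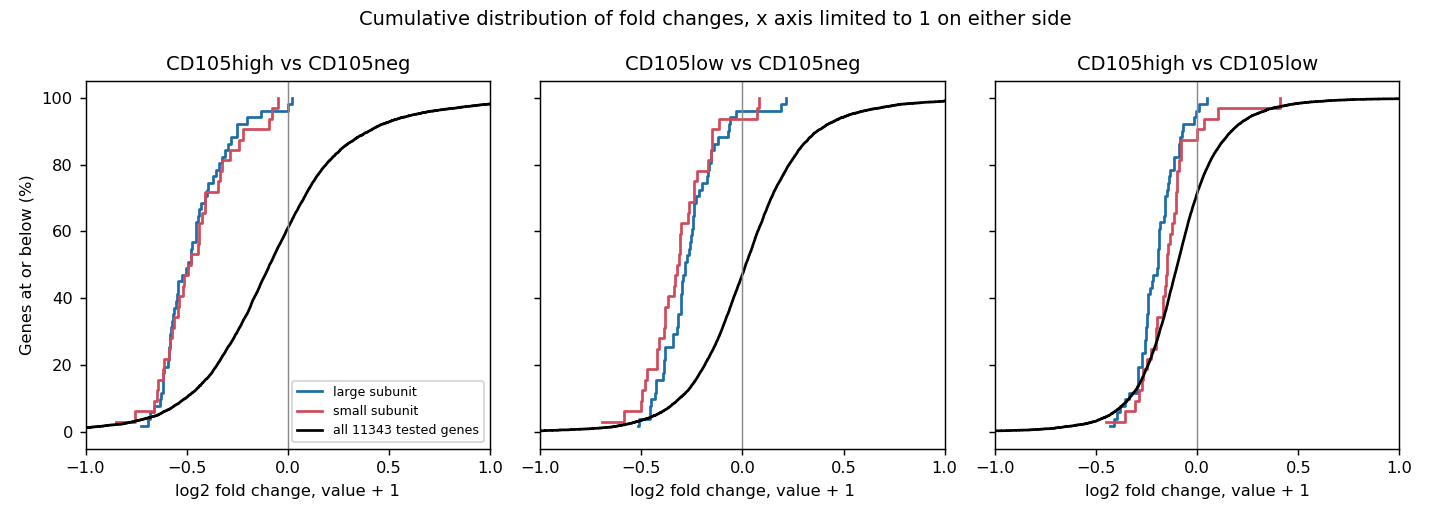
Cumulative distributions of log2 fold changes (value plus 1) for large subunit genes, small subunit genes and all 11343 tested genes in the 3 comparisons, with the x axis limited to 1 on either side. Both subunits lie to the left of all genes against CD105neg, with medians of -0.49 and -0.49 for CD105high and -0.28 and -0.32 for CD105low, and close to all genes for CD105high against CD105low, at -0.19 and -0.15.

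The large and the small subunit had nearly the same medians. For CD105high against CD105neg the medians were -0.49 in both, a difference of -0.0089. At least 1.5-fold lower were 13 of 51 (25.5%) large and 8 of 32 (25%) small subunit genes, against 6.88% of all tested genes. These counts are on the deposited scale. After rescaling to the same sum 3 of 84 members of the whole family (3.57%) were 1.5-fold lower, and after centring 5 of 83 (6.02%). The shares of all genes tested in those settings were 7.25% and 4.50%. For CD105low against CD105neg the medians were -0.28 for the large and -0.32 for the small subunit, a difference of 0.034. For CD105high against CD105low they were -0.19 and -0.15, a difference of -0.044. With 1 library per group these differences have no error. The quartiles of single genes for CD105high against CD105neg were -0.58 and -0.38 in the large and -0.58 and -0.34 in the small subunit. The order lowest in CD105high and highest in CD105neg was seen in 47 of 51 large and 27 of 32 small subunit genes, against 36.4% of all tested genes.

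**Figure D3:**
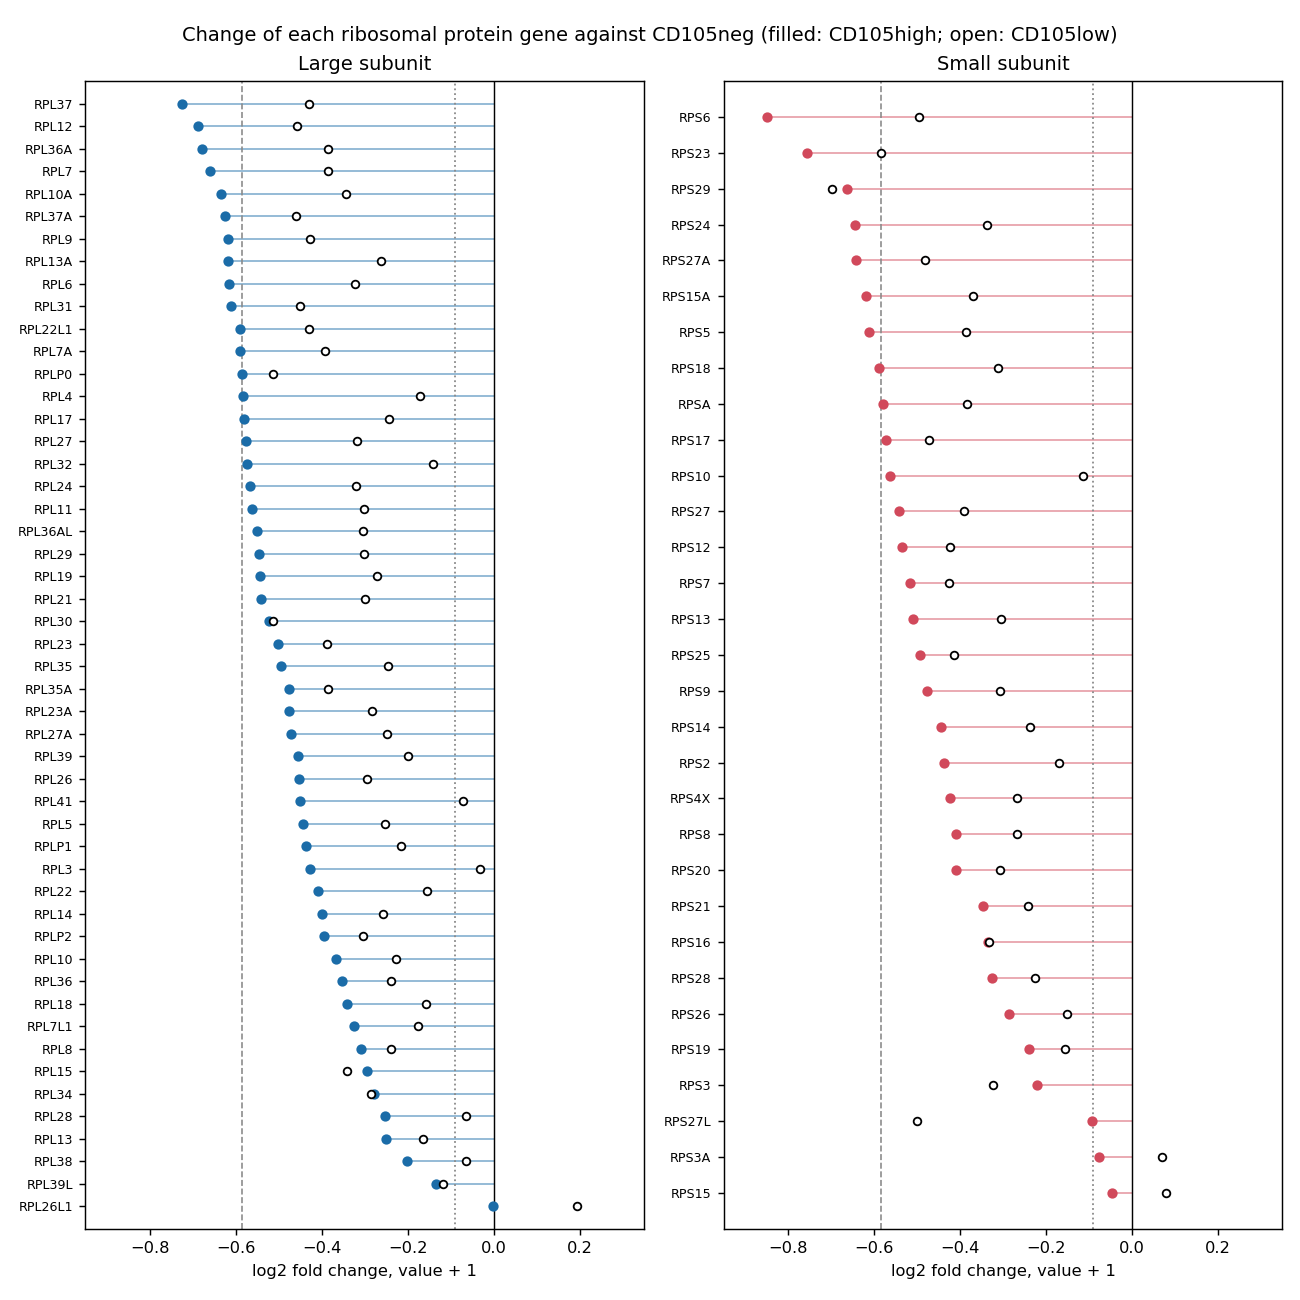
Log2 fold change of the value plus 1 of each measured gene reported by name for CD105high against CD105neg (filled points) and CD105low against CD105neg (open points), sorted within the large and the small subunit. The dashed line marks 1.5-fold lower and the dotted line the median of all tested genes for CD105high, -0.09; filled points run from -0.73 to -0.00 in the large and from -0.85 to -0.05 in the small subunit.

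Within the small subunit, RPS6 was the gene with the lowest fold change. RPS6, the target of the S6 kinases in growth signalling, had 491 FPKM in CD105high, 629 FPKM in CD105low and 887 FPKM in CD105neg (log2 fold change of CD105high against CD105neg -0.85). RPS23, at the decoding centre, had 126, 143 and 214 FPKM in that order of libraries (-0.76). For both genes CD105low was nearer to CD105high than to CD105neg. RPS29, another zinc finger protein, had 656 FPKM in CD105high, 641 FPKM in CD105low and 1039 FPKM in CD105neg (-0.66), so the libraries with CD105 were alike and CD105neg stood above them. RPS24 had 726, 898 and 1135 FPKM (-0.64), RPS27A, made as a fusion with ubiquitin, 437, 488 and 682 FPKM (-0.64), and RPS15A 311, 369 and 478 FPKM (-0.62). These 3 genes were lowest in CD105high and highest in CD105neg. At the other end stood RPS15, of the head of the subunit, with 102 FPKM in CD105high, 112 FPKM in CD105low and 105 FPKM in CD105neg (-0.05), and RPS3A, of the platform, with 349, 387 and 369 FPKM (-0.08). In both genes CD105low was highest. RPS3, at the mRNA entry, had 216, 201 and 252 FPKM (-0.22), RPS19, the first gene found in Diamond-Blackfan anaemia, 765, 809 and 902 FPKM (-0.24), and RPS26, which touches the mRNA where it leaves, 80.6, 88.7 and 98.5 FPKM (-0.29). Of the sampled sequence of RPS3A, 68.4% also occurs in other genes, as does 31.1% of that of RPS15, so their values are uncertain. The same holds for RPS27A, among the strongest changes, with 30.8%.

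Within the large subunit, RPL37, a zinc finger protein, had 73.8 FPKM in CD105high, 90.9 FPKM in CD105low and 123 FPKM in CD105neg (log2 fold change of CD105high against CD105neg -0.73). RPL12, at the base of the stalk, had 553, 649.6 and 892 FPKM in that order of libraries (-0.69), and RPL36A, near the exit site of tRNA, 489, 600.2 and 784 FPKM (-0.68). In all 3 genes CD105high was lowest and CD105neg highest. RPL7, which lies near the 5S rRNA, had 437 FPKM in CD105high, 529 FPKM in CD105low and 691 FPKM in CD105neg (-0.66), RPL10A, of the L1 stalk, 408, 499.9 and 634 FPKM (-0.63), and RPL37A 262, 294 and 405 FPKM (-0.63). Of the sampled sequence of RPL7, 55.4% is shared, and of that of RPL12, RPL36A and RPL10A 29.4%, 31.25% and 33.7%, so these values are uncertain too. In RPL37 and RPL37A 2.42% and 1.16% is shared, so the genes with the strongest change include some that hardly share sequence. Among the weakest changes of genes that are not paralogs were those of RPL38, RPL13 and RPL28. RPL38, which in the mouse affects the translation of a subset of patterning mRNAs, had 300.2, 329.9 and 345 FPKM in CD105high, CD105low and CD105neg (-0.20), and RPL13 199, 211 and 237 FPKM (-0.25). On the deposited scale 1 of 83 members was above 0, and after rescaling to the same sum 5 of 84 members were.

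By place in the ribosome, the groups overlapped. The stalk recruits the elongation factors. Its genes RPLP0, RPLP1 and RPLP2 and the base gene RPL12 had log2 fold changes of CD105high against CD105neg between -0.69 and -0.39, and RPLP0 had 426 FPKM in CD105high, 448 FPKM in CD105low and 640.3 FPKM in CD105neg. RPLP1 had 117, 136 and 158 FPKM and RPLP2 262, 279 and 344 FPKM in that order. RPL5 and RPL11 carry the 5S rRNA into the ribosome and, when free, bind the p53 regulator MDM2. RPL11 had 723 FPKM in CD105high, 866 FPKM in CD105low and 1067 FPKM in CD105neg (-0.56), and RPL5 491, 561 and 669 FPKM (-0.44). In these 5 genes CD105high was lowest and CD105neg highest. The 8 genes of the peptide exit tunnel lay close together, between -0.61 and -0.45. The 4 genes of mRNA entry and decoding, RPS2, RPS3, RPS15 and RPS23, spanned -0.76 to -0.05, and the 6 of the platform and mRNA exit -0.61 to -0.08. RPSA, the laminin receptor precursor, whose loss of 1 copy causes absence of the spleen, had 561, 643 and 839.6 FPKM (-0.58). RPS14, the gene lost in the 5q- syndrome of blood, had 425, 489.96 and 578 FPKM (-0.44). Of 16 genes of Diamond-Blackfan anaemia, 3 (18.8%) were lower by 1.5-fold or more in CD105high, set against CD105neg, beside 6.88% of all tested genes and on the deposited scale, with a median of -0.53 and a range from -0.66 to -0.24, within the range of the other members.

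The paralogs, copies of ribosomal protein genes that code for close relatives, were much lower in level than their core genes. RPL22L1 and RPL22 have opposing effects on the emergence of blood stem cells in zebrafish. RPL22L1 had 32.4 FPKM in CD105high, 36.3 FPKM in CD105low and 49.3 FPKM in CD105neg (-0.59 for CD105high against CD105neg), and RPL22 had 116, 138 and 154 FPKM (-0.41). RPL22L1 thus came to 27.9% of RPL22 in CD105high, 26.3% in CD105low and 32.0% in CD105neg. RPS27L, a p53 target, had 25.4, 18.9 and 27.1 FPKM (-0.09) and was lowest in CD105low, where it came to 1.37% of RPS27, against 2.05% in CD105high and 1.504% in CD105neg. RPL26L1 had 21.4, 24.6 and 21.4 FPKM (-0.00), at 4.26%, 4.39% and 3.11% of RPL26, which had 501, 559.5 and 686 FPKM. The share was thus lowest in CD105neg. RPL39L, best known from male germ cells, had 38.0, 38.4 and 41.8 FPKM (-0.13), at 4.60%, 3.90% and 3.69% of RPL39. RPL36AL, which has no introns, had 126, 149.7 and 185 FPKM (-0.55), at 25.8%, 24.9% and 23.6% of RPL36A, and RPL7L1 had 22.5, 25.1 and 28.5 FPKM (-0.33), at 5.16%, 4.75% and 4.12% of RPL7. In 5 of the 6 measured pairs the paralog took a larger share in CD105high than in CD105neg, the exception being RPL22L1. The core genes of these 5 pairs had log2 fold changes between -0.68 and -0.45, against a median of -0.09 over all tested genes. A gene near that median would thus also take a larger share of them. No such count was made over other genes, so the 5 pairs are not read as a trait of paralogs. The core genes of the copies that were not measured, RPL10 and RPL3, had 316, 348 and 408 FPKM (-0.37) and 223, 294 and 300.2 FPKM (-0.43). Shared sequence reached 48.2% in RPL26L1 and 0.90% in RPL22L1, 1.52% in RPS27L and 5.77% in RPL39L, so the values of the last 3 rest mostly on sequence of their own. Sources used here do not say how reads shared between genes were divided.

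**Figure D4:**
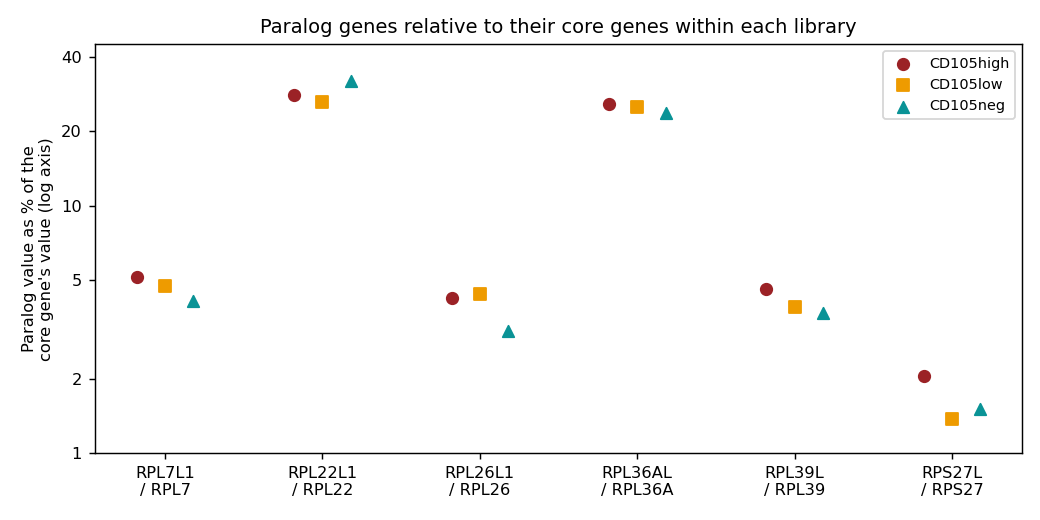
Value of each paralog as a percentage of the value of its core gene within CD105high, CD105low and CD105neg, on a log axis, for the 6 measured pairs. The share runs from 1.37% for RPS27L in CD105low to 32.0% for RPL22L1 in CD105neg.

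What the genes shared beyond their names was set beside the size of the change. Of 56 genes with 1 RefSeq window, the 41 with a TOP start had a median log2 fold change of CD105high against CD105neg of -0.49 and the 15 without it -0.52. The length of the run and the fold change had a Spearman coefficient of -0.04 over the 56 genes. Other tested genes with such a start had a median of -0.12 over 315 genes, and those without it -0.09 over 5874 genes. Genes with a higher level tended to a lower fold change, with a coefficient of -0.41 over the 83 members, and transcript length and shared sequence had coefficients of -0.07 and -0.12. These coefficients are descriptions across genes measured in the same 2 libraries. Outside the family, the 351 other genes with a mean of at least 100 FPKM had a median of -0.12, and the 2801 other genes with a median transcript under 1000 bases -0.14, against -0.09 over all tested genes. The part of level and length in the members' values was not tested. The 22 members with under 10% of shared sequence had a median of -0.44. On the deposited scale 6 of them (27.3%) were at least 1.5-fold lower, against 6.40% of all tested genes left by the same filter.

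Ribosome proteins that the naming rule leaves out had the same direction. FAU, which gives RPS30, had 174 FPKM in CD105high, 178 FPKM in CD105low and 215 FPKM in CD105neg (-0.31 on the log2 scale for CD105high against CD105neg), and RACK1, a scaffold on the head of the small subunit, had 227, 289.9 and 376 FPKM (-0.72). Both were lowest in CD105high and highest in CD105neg. Read-through genes, which join a member to its neighbour, stood at 13.1, 39.5 and 54.7 FPKM for RPL36A-HNRNPH2, 10.2, 11.2 and 8.01 FPKM for RPL17-C18orf32, and 0.74, 0.72 and 0.84 FPKM for RPS10-NUDT3, all low beside RPL36A, RPL17 and RPS10. RPL36A-HNRNPH2 shares 92.6% and RPL17-C18orf32 94.4% of the sampled sequence with other genes, so their values are uncertain.

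Other lists of protein synthesis also had medians under that of all tested genes, while the share at least 1.5-fold lower, 6.88% of all tested genes, was near that value in the mitochondrial list and under it among the translation factors. The 75 mitochondrial ribosomal proteins had a median log2 fold change of CD105high against CD105neg of -0.35, with 7 (9.33%) at least 1.5-fold lower and none higher. The 25 ribosome biogenesis genes had a median of -0.45, with 6 (24.0%) lower and none higher. NPM1, a nucleolar chaperone, had 393 FPKM in CD105high, 496 FPKM in CD105low and 685 FPKM in CD105neg (-0.80), and NCL, nucleolin, 35.7, 49.7 and 62.5 FPKM (-0.79), while FBL, the methyltransferase of rRNA, had 32.0, 26.9 and 28.4 FPKM (0.17). The 17 translation factors and other genes with TOP mRNAs had a median of -0.34, with 1 (5.88%) lower, EEF1B2. In CD105low, 3 of these 17 genes were 1.5-fold lower and 2 higher than in CD105neg, against 2.18% and 4.13% of all tested genes. EEF1G, a subunit of the elongation factor complex, had 157 FPKM in CD105high, 504 FPKM in CD105low and 215 FPKM in CD105neg. No list can be said to differ from another, since with 1 library per group no test of such a difference is possible.

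**Figure D5:**
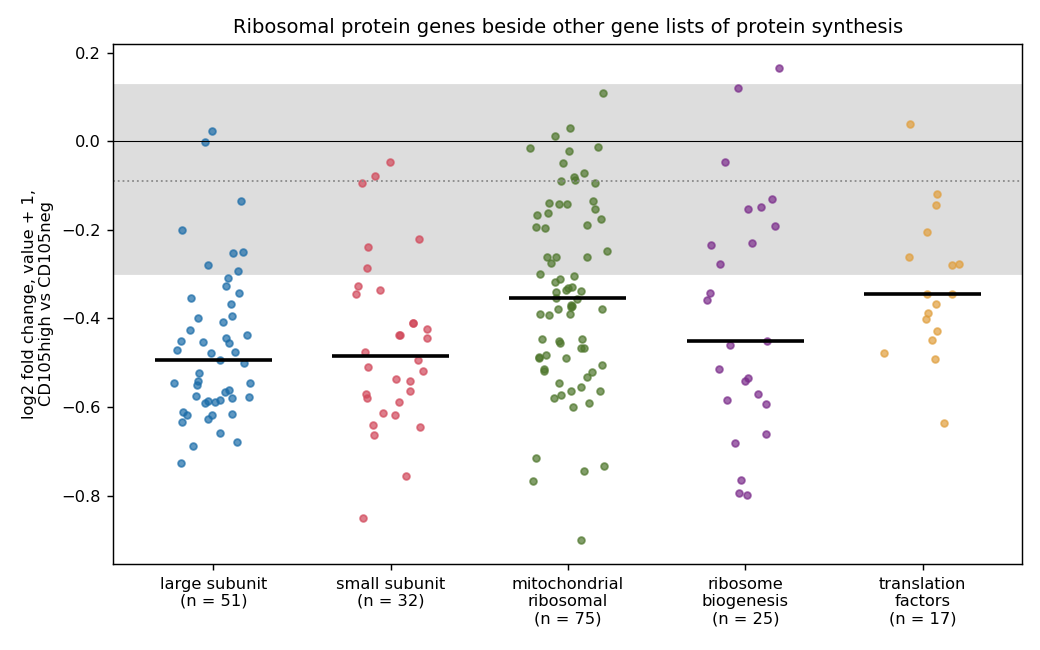
Log2 fold change of the value plus 1 for CD105high against CD105neg, with a point per gene and a black bar at the median of each list; the grey band spans the quartiles of all tested genes, -0.30 and 0.13, and the dotted line is their median, -0.09. The medians are -0.49 for each subunit, -0.35 for mitochondrial ribosomal proteins, -0.45 for ribosome biogenesis and -0.34 for translation factors.

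Markers of other cells also differed between the libraries. Of 12 erythroid markers, 7 were measured and all 7 were lower by 1.5-fold or more both in CD105high and in CD105low, set against CD105neg. The 12 summed to 10.02 FPKM in CD105high, 19.6 FPKM in CD105low and 61.2 FPKM in CD105neg, with SLC4A1 at 0 in all 3 libraries and HBZ, AHSP, HBA1 and HBA2 at 0 in CD105high and CD105low. Of 6 cell cycle genes, 1 was lower by 1.5-fold or more, MCM2, while MKI67 (log2 fold change of 0.18) and TOP2A (0.15) lay slightly higher in CD105high than in CD105neg. The list summed to 386 FPKM in CD105high, 456 FPKM in CD105low and 459 FPKM in CD105neg, or 0.145%, 0.160% and 0.159% of the library total, a share highest in CD105low. Of 4 measured mesenchymal markers, 3 were lower and PDGFRA was slightly higher (0.16), and all 6 fixed summed to 31.8, 46.3 and 57.0 FPKM in CD105high, CD105low and CD105neg. Of 6 measured pluripotency markers 1 was lower by 1.5-fold or more and DPPA4 nearly level (0.01), with sums of 84.1, 94.3 and 103 FPKM in that order, and of 2 measured leukocyte markers 1 was lower, with sums of 5.27, 7.33 and 8.76 FPKM. CD53, a leukocyte gene under 1 FPKM, had 0.41, 0.31 and 0.16 FPKM. The sums of these 5 lists follow the order of the library totals, which were also lowest in CD105high and highest in CD105neg. As shares of the total, all but the cell cycle list kept this order. In CD105high, CD105low and CD105neg the erythroid list held 0.0038%, 0.0069% and 0.0211%, and the mesenchymal list 0.0120%, 0.0162% and 0.0197%. The pluripotency list held 0.0317%, 0.0331% and 0.0356%, and the leukocyte list 0.0020%, 0.0026% and 0.0030%. The part of these cells, and of the cell cycle, in the levels of ribosomal protein mRNA was not tested, and a different mix of cells and less of the mRNA per cell cannot be told apart in bulk samples.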

How the data were processed

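RNA-seq of 3 libraries was used, 1 each of CD105high, CD105low and CD105neg, prepared with a TruSeq kit that does not mark strand, per the labels' protocols. The deposited values, 1 for each of 18345 genes, were treated as FPKM, which the authors would have made by scaling fragments to transcript length and library. The file headers name no unit. If they are TPM, each library differs by 1 constant factor. BWA, Bowtie, RSEM and hg19 are named in the submitters' processing notes, without version or role. Sources used here do not give filters or annotation.

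Fold changes are log2 of the value plus 1. Genes that reached 1 FPKM in any library were tested (11343), and called at 1.5-fold. Without replicates there is no p-value. Identifiers were matched to GENCODE release 29 (18317 genes), and shared sequence is the percentage of 50-base pieces, taken every 40 bases, that also occur in a transcript of another gene; 61 of 83 members had at least 10%. Promoter windows came from RefSeq on GRCh38.p14, another build than hg19. The members, lists, places in the ribosome and tests were chosen with earlier results of these data known. Named with values were, per subunit, the 3 highest levels and the 6 lowest and 6 highest fold changes, the paralog pairs, the stalk, and RPS19, RPL5, RPL11, RPS14 and RPSA. A few genes that this rule names are not reported here, but stay in counts and medians. Scripts (Python 3.11.15, pandas 2.3.3) were tested on simulated data. The alternatives were the pseudocount, the minimum value, the scale, shared sequence, the threshold and the paralogs.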

Additional observations from a re-analysis of the deposited data

How the results depend on the processing

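No paired analysis was possible because each group has 1 library. For the same reason no library could be left out. Of 125 recomputed counts, medians and shares of the family, 101 stayed within 1.5 times the count or share or within the 95% binomial interval of the median over members, and the other 24, given here, moved or rest on fewer genes. No setting reversed the sign of the members' median in any comparison. After rescaling, however, the share of members 1.5-fold lower in CD105high against CD105neg fell under that of all genes tested in that setting. That set holds 84 members and genes of lower level, since the minimum of 1 acts on the rescaled values. For CD105high against CD105neg, members 1.5-fold lower numbered 5 after centring, 3 after rescaling and 6 without genes of at least 10% shared sequence, with medians of -0.40, -0.37 and -0.44. In that order these were 6.02%, 3.57% and 27.3% of the members, against 4.50%, 7.25% and 6.40% of all genes tested in that setting. At a log2 threshold of 0.32 and at 2-fold, lower members numbered 68 and 0, against 22.8% and 1.31% of all tested genes. For CD105low against CD105neg, 2 (2.41%) were lower with a pseudocount of 0.1 and 2 (2.41%) after centring, against 3.94% and 2.40% of all tested genes. At a log2 threshold of 0.32 there were 32 (9.50% of all tested genes) and at 2-fold 0 (0.361%). For CD105high against CD105low, the median was -0.090 after centring and -0.090 after rescaling. At a log2 threshold of 0.32, 8 (9.64%) were lower, under the 11.2% of all tested genes, and 1 was higher, against 4.16%. Without shared-sequence genes, which leaves 22 members, the subunits differed by -0.063 in that comparison, CD105low lay in between for 20, and the members held 4.21%, 4.51% and 5.67% of the total in CD105high, CD105low and CD105neg; without paralogs they held 11.4%, 12.3% and 14.9%. Beyond the change in which genes enter, the cause was not tested. The number of reads is unknown, so no counting error can be set beside any value.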
